A study of Mus musculus with 12 samples.

Results

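Livers of mice given an adenovirus with a hairpin RNA against G0s2 (shG0s2) were compared with livers of mice given the same kind of virus with a hairpin against lacZ (shLacZ), a bacterial gene that mice lack. The comparison used 8 of the 12 samples of the series, 4 per group, chosen by their labelled treatment. The other 4 samples carried a hairpin against Rgs16 (shRgs16) and served only for a direct test against shG0s2. All mice were wild-type C57BL/6 animals of 8 weeks, so no group is a germline knockout. Each mouse, controls included, had received 0.1 OD of adenovirus through the tail vein 12 days earlier. Livers were taken at zeitgeber time 12 h, after 6 h without food. The labels used here do not give the sex of the mice, and they do not say whether each library is 1 animal. Total RNA depleted of ribosomal RNA was sequenced from whole liver, which mixes hepatocytes with bile duct, endothelial, stellate and immune cells. In such tissue, fewer cells of a type and less RNA per cell cannot be told apart. All 55536 genes in the table were considered, and 15592 had enough counts to be tested.

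G0s2 encodes a small protein that binds and inhibits adipose triglyceride lipase, the enzyme that opens the breakdown of stored triglyceride, and it is abundant in liver and fat. The hepatocyte is also the main source of plasma proteins. It exports albumin, carriers, protease inhibitors and hormones, reads circulating hormones and cytokines through its surface receptors, and holds its identity through a network of liver-enriched transcription factors. The results below follow these roles: the most abundant transcripts, secreted proteins, receptors and transcription factors.

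The targeted transcript was read first. G0s2 stood at 86.1, 73.1, 65.4 and 65.9 CPM (counts scaled to library size, here with TMM factors) in shLacZ livers and at 48.9, 37.5, 24.5 and 36.7 in shG0s2 livers. The groups did not overlap. The fitted log2 fold change was -0.98 (SE 0.198, n = 4 and 4, edgeR adjusted p = 0.0030). With library size alone as the scaling, the change was -0.48 with an adjusted p of 0.055. Rgs16, a regulator of G protein signalling that this hairpin does not target, was at 147 ± 45.6 CPM (SD, n = 4) in shLacZ and 58.6 ± 11.2 in shG0s2, a log2 change of -1.32 (SE 0.244, edgeR adjusted p = 0.0024).

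Libraries held 18458222 to 26472189 counts, the lowest being shG0s2 replicate 2. The first principal component took 76.9% of the variance over the 15592 genes. At an edgeR adjusted p below 0.05, 31.3% of tested genes were higher and 29.2% lower in shG0s2 (4875 and 4556 genes, together 60.5%), and the groups did not overlap in CPM for 55.5% of genes. A share of any list near these values is no result about that list. Scaling decides much of the balance: the median log2 change of all genes was 0.01 with TMM and 0.50 with library size alone, under which 64.6% of genes were higher and 7.99% lower (together 72.6%). List counts are therefore given below under both scalings.

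Marker lists moved with the groups. Of 10 hepatocyte markers, 9 fell and none rose with TMM, and 7 were lower and 1 higher with library size alone. Their summed level overlapped between groups, at 48216 to 60753 CPM in shLacZ and 30493 to 52057 in shG0s2. All 10 stellate cell and fibroblast markers rose under both scalings, with a summed level of 253 to 357 CPM in shLacZ and 1212 to 1502 in shG0s2. The collagen gene Col1a1 went from 17.2 ± 6.27 to 194 ± 22.4 CPM. Of 10 macrophage and Kupffer cell markers 9 rose (768 to 843 CPM against 1094 to 1314), of 10 T and NK cell markers 8 rose (10.9 to 31.1 CPM against 44.96 to 52.0), and of 8 tested bile duct markers 5 rose (148 to 288 CPM against 201 to 286). Of 9 tested neutrophil markers 1 rose, and of 10 B and plasma cell markers 3 rose. Of 10 endothelial markers 1 was higher and 2 lower with TMM, but 7 were higher and 0 lower with library size alone. Under that scaling the markers that were higher numbered 10 for macrophages, 9 for T and NK cells, 7 for bile duct, 6 for neutrophils and 5 for B and plasma cells, with 0 lower in each list. Over all genes 64.6% were higher under that scaling and 31.3% with TMM. The neutrophil and endothelial shares lay near the first value, and the B and plasma cell share below it. With TMM the B and plasma cell share lay near that of all genes. None of these lists had a marker at 0 in all 8 libraries. The part of these cell types in the results below was not tested.

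The most abundant transcripts changed mainly by loss of the major urinary proteins, small lipocalins that male mouse liver secretes in large amounts and that carry pheromones. The 100 genes of highest mean TPM (transcripts scaled by length and depth) summed to 580387 ± 8154 TPM in shLacZ and 442989 ± 15389 in shG0s2 (SD, n = 4 and 4). Without the 14 major urinary protein genes among them, the sums were 390208 ± 4037 and 419499 ± 14096. TPM sum to nearly the same total in each library, so a loss in some genes lifts the others. The same 86 genes took 28.3% of all counts in shLacZ and 27.9% in shG0s2. The 22 major urinary protein genes of the table took 10.5% of all counts in shLacZ and 1.15% in shG0s2. All 21 of them that could be tested fell, with a median log2 change of -5.60 (-5.16 with library size alone). Mup20 fell least, from 22162 ± 1329 to 7213 ± 925 CPM (log2 change -1.62, edgeR adjusted p = 5.9e-07). Mup7 stood at 16292, 15356, 11117 and 17147 CPM in shLacZ and at 83.9, 19.8, 94.3 and 18.5 in shG0s2. Many genes of this family are near-identical copies, and the division of reads among such copies is uncertain. How far Mup20 differs in sequence from the others was not examined here.

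**Figure D1:**
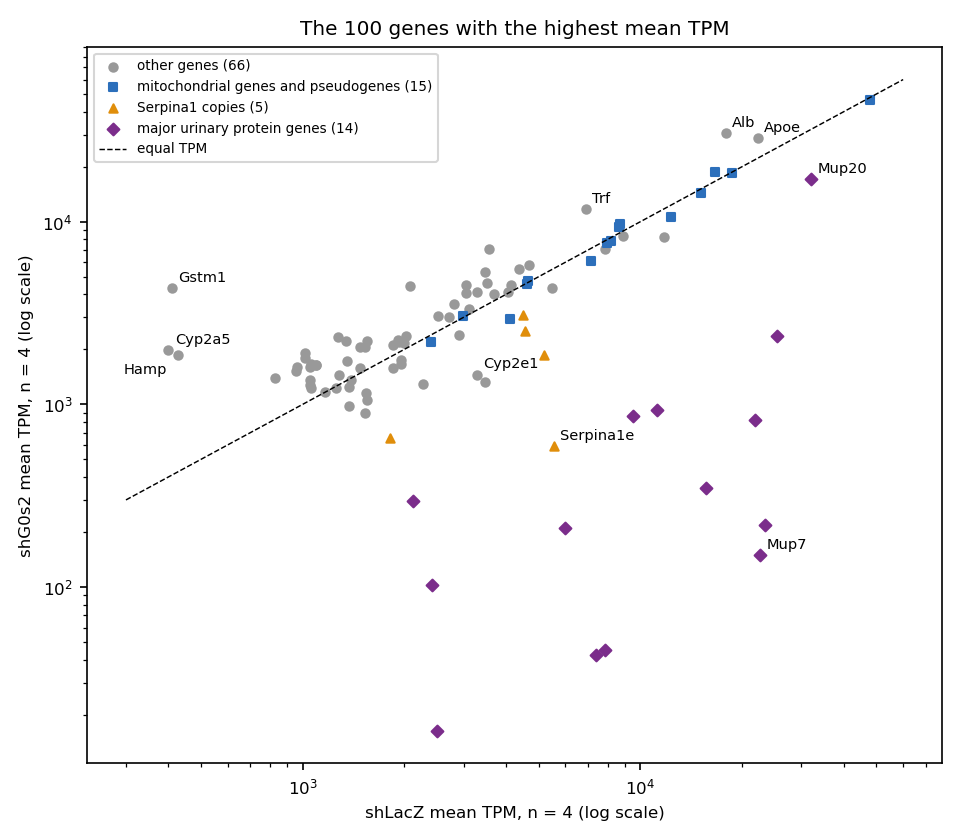
Mean TPM of the 100 most abundant genes in shLacZ (horizontal, log scale) and shG0s2 (vertical, log scale), 4 livers per group, with the dashed line at equal TPM. Major urinary protein genes lie far below the line, Mup20 least so, while Alb, Apoe and Trf lie above it on a scale that sums to the same total in each library.

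The highest 100 genes of each group shared 75 members and the highest 10 shared 6. In shLacZ 5 of the 10 highest were major urinary proteins, Mup20, Mup22, Mup19, Mup7 and Mup14. In shG0s2 only Mup20 was, and the first places were held by mt-Atp8, Alb (albumin, 30512 ± 5563 TPM) and Apoe (apolipoprotein E, 28770 ± 2471 TPM). The place of mt-Atp8 at 46239 ± 2562 TPM goes with its short length, since it held only 241 ± 20.7 CPM, and the nuclear copies Gm28661, Gm10222 and Gm28437 may share reads with mitochondrial genes. The mitochondrial transcripts mt-Co1 and mt-Nd1 were also among the 10 highest in shG0s2; they had log2 changes of -0.54 and -0.55 with TMM and of -0.05 and -0.06 with library size alone. Among the 86 abundant genes that are not major urinary proteins, 6 rose and 62 fell with TMM, and 24 were higher and 30 lower with library size alone. Leaving out the mitochondrial genes and pseudogenes as well, 6 of 71 rose and 47 fell with TMM, against 24 and 20 with library size alone, so no direction holds for this set under both scalings. Its median log2 change, -0.46 with TMM and 0.02 with library size alone, lay below that of all genes (0.01 and 0.50). Since scaling shifts all genes nearly alike, the gap under the second scaling is no separate evidence.

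Some single abundant genes kept their direction under both scalings, but Apoe did not. Gstm1, a glutathione transferase that conjugates reactive compounds, stood at 378, 426, 499 and 368 CPM in shLacZ and at 3355, 2701, 2411 and 2581 in shG0s2. Every shG0s2 liver was above every shLacZ liver, and the log2 change was 2.72 (SE 0.134, edgeR adjusted p = 2.8e-08). Hamp, the iron hormone hepcidin, rose from 61.9 ± 34.4 to 166 ± 42.2 CPM (log2 change 1.42, edgeR adjusted p = 0.027), a call that was lost without shLacZ replicate 4 (adjusted p = 0.069) and without shG0s2 replicate 3 (0.066) or 4 (0.053). That call was also lost with no filter on low counts (edgeR adjusted p = 0.055). The ferritin chains Fth1 and Ftl1, which store iron, rose by log2 changes of 0.31 and 0.29. The other increases were Cyp2a5 (1.58) and the chaperone clusterin, Clu (0.25, groups overlapping). The call of Clu was lost when any of 6 of the 8 libraries was left out, shLacZ replicates 2 to 4 and shG0s2 replicates 1, 3 and 4 (adjusted p from 0.061 to 0.15). Clu also lost its call with RLE scaling in place of TMM (edgeR adjusted p = 0.055) and with all 12 samples in the fit (0.088). Cyp2e1, the ethanol-oxidising cytochrome P450, fell from 5377 ± 408 to 1473 ± 313 CPM (log2 change -1.87), and Serpina3k, a protease inhibitor, from 6570 ± 740 to 1549 ± 475 (-2.08). Albumin itself was 33326 ± 3999 and 35114 ± 7794 CPM with overlapping groups (log2 change 0.08, edgeR adjusted p = 0.73), but 0.56 with an adjusted p of 0.0017 with library size alone. Apoe had a log2 change of -0.34 (adjusted p = 0.020) with TMM, 0.14 with library size alone, and no call without shLacZ replicate 2 (adjusted p = 0.054). Transferrin, Trf, was 9560 ± 1543 and 9972 ± 927 CPM (0.06, adjusted p = 0.72), and 0.55 with library size alone.

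The alpha-1-antitrypsin genes, which supply the main plasma inhibitor of neutrophil elastase, fell by different amounts among near-identical copies. The table holds 5 of them, side by side on the minus strand of chromosome 12. The log2 changes were -1.27 for Serpina1b, -1.54 for Serpina1a, -2.16 for Serpina1d, -2.19 for Serpina1c and -3.89 for Serpina1e, each past the threshold with edgeR. Serpina1e stood at 7025, 5998, 4003 and 7358 CPM in shLacZ and at 210, 134, 1053 and 249 in shG0s2. The third shG0s2 liver was well above the other shG0s2 livers and still below all controls, and without it the log2 change of Serpina1e was -4.95. The stretches below are shown because the copies differ so little next to the transcribed region. They come from RefSeq on GRCm38.p6, run 5′ to 3′, and end upstream of the RefSeq starts. Capitals mark a shared run that opens with GTTAAT.
Serpina1a, chr12:103863629-103863740: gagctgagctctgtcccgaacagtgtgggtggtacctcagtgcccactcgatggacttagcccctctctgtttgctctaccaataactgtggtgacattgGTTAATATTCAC
Serpina1b, chr12:103738204-103738315: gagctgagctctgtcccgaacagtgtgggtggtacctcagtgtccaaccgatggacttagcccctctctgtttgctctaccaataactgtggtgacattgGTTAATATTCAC
Serpina1c, chr12:103904966-103905077: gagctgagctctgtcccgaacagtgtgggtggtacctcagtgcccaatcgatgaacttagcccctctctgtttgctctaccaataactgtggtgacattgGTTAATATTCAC
Serpina1d, chr12:103773638-103773749: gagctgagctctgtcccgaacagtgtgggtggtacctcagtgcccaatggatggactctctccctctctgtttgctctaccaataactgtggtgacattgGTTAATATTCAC
Serpina1e, chr12:103956964-103957075: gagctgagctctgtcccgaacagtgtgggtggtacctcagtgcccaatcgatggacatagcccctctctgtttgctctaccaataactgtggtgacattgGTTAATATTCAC
Over these 112 bases any pair differed at 2 to 7 positions, and Serpina1e differed from Serpina1a at 2. Annotated longer transcripts place the Serpina1b, Serpina1d and Serpina1e stretches within introns. The copies share most of their transcribed sequence too, so part of a difference between them may rest on how reads were assigned.

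Among promoter windows of 300 bases (250 before to 50 after each RefSeq start, both strands searched), the 12-base run occurred in 5 of 32851, those of the Serpina1 copies. The run GTTAAT was present in 7.10% of all windows, in 4.94% of those of tested genes, in 4.56% of the windows of genes that rose by a fold of 2 or more, and in 8.59% of those that fell by as much. GTTAAT was picked from the Serpina1 windows, and all 5 of these are among the windows that fell. Windows of near-identical copies were each counted, so the shares do not rest on independent windows. CAAAGTCCA, a form of the HNF4 site, was present in 0.475% of all windows, 0.554% of those of tested genes, 0.545% of those that rose and 2.11% of those that fell. TGANTCA, the AP-1 site, was present in 7.81% of all windows, 5.58% of those of tested genes, 7.68% of those that rose and 8.17% of those that fell. For TATAAA, the TATA box, the shares were 13.6%, 8.14%, 9.31% and 16.3% in the same order. The tested genes are the set from which both others come. These shares are descriptions of letters in the windows and were not tested.

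A second near-identical pair behaved unequally in the other direction. Cyp2a4 and Cyp2a5, cytochrome P450 genes that hydroxylate steroids and coumarin, lie on the plus strand of chromosome 7. Cyp2a4 stood at 5.41, 10.8, 12.5 and 6.33 CPM in shLacZ and at 404, 358, 646 and 286 in shG0s2 (log2 change 5.59, SE 0.415, edgeR adjusted p = 2.6e-05). Cyp2a5 stood at 699, 717, 946 and 492 CPM and at 2472, 1948, 2142 and 1958 (log2 change 1.58, SE 0.174). In controls Cyp2a5 was the far more abundant copy, at 401 against 5.74 TPM, and in shG0s2 the levels were 1981 and 442 TPM. The RefSeq stretches upstream of both annotated starts are aligned base for base, with capitals at the bases that differ.
Cyp2a4, chr7:26306943-26307158: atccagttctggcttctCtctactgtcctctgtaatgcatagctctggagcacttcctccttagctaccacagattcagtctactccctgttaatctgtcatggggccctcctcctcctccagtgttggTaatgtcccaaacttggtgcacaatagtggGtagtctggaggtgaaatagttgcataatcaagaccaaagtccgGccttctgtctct
Cyp2a5, chr7:26835089-26835304: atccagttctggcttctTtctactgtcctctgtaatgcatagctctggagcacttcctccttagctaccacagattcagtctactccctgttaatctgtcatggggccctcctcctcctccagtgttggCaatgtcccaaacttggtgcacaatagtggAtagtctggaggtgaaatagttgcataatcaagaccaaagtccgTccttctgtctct
The stretches differ at 4 of 216 bases. Reads of these genes may be shared too, and an antisense transcript is annotated over the Cyp2a4 stretch.

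Apart from the major urinary proteins, described above as a group, protein-coding genes with a mean of at least 50 TPM were ranked by their change. The increases were led by Cyp2a4, by the glutathione transferases Gm3776 (log2 change 5.51), Gstm3 (5.38), Gsta1 (5.01) and Gm10639 (4.69), by the surface protein Ly6d (5.43), by the carbonyl reductase Cbr3 (5.16), and by the ubiquitin-like modifier Ubd (4.50). Ly6d stood at 6.23, 5.40, 5.69 and 5.35 CPM in shLacZ and at 211, 301, 213 and 254 in shG0s2. The groups were far apart, with little spread among the controls. Gm3776, Gsta1 and Gm10639 belong to one family of close copies whose reads may be exchanged.

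The decreases were led by the odorant-binding lipocalin Obp2a (-6.20), the sulfotransferase Sult2a8 (-4.76), the carboxylesterase Ces3b (-3.98), Serpina1e, Cyp7b1 (-3.73), the fatty acid elongase Elovl3 (-3.35), the acute phase protein Saa1 (-3.20) and Cyp8b1 (-3.18). Cyp7b1, the oxysterol hydroxylase of the alternative bile acid route, stood at 322, 326, 270 and 356 CPM in shLacZ and at 20.6, 18.1, 32.3 and 25.1 in shG0s2. Cyp8b1, the sterol hydroxylase that directs synthesis to cholic acid, fell from 371 ± 108 to 40.8 ± 28.2 CPM. In several of these genes the third shG0s2 liver kept the highest remainder: 38.7 CPM of Ces3b against 9.82 to 15.1, and 81.3 CPM of Cyp8b1 against 15.9 to 34.3. Saa1 varied widely in controls, from 149 to 753 CPM.

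Secreted proteins divided by their role, as the plot of role lists shows. Of 22 carriers and binding proteins of plasma, 2 rose and 11 fell, with a median log2 change of -0.31. With library size alone 10 were higher, 5 lower and the median was 0.18. This median lies below that of all genes. Scaling shifts all genes nearly alike, so the gap is almost the same under both scalings and is no second line of evidence. Of 30 liver hormones and secreted enzymes, 9 rose and 15 fell (median -0.32). With library size alone 14 were higher and 7 lower (median 0.17). Of 37 growth factors and vascular ligands, 24 rose and 5 fell (median 0.95), and 30 and 2 did so with library size alone. Stellate, macrophage and T cell markers rose in the same livers.

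**Figure D2:**
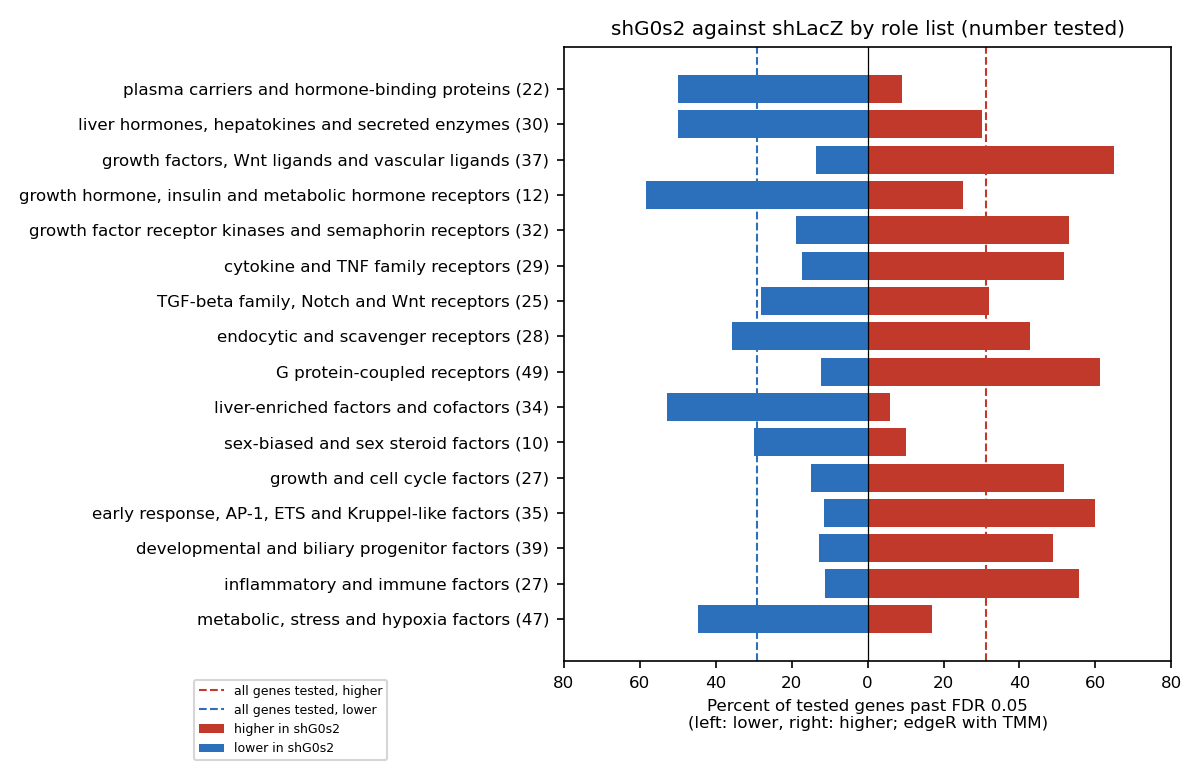
Share of tested genes of each role list that was higher (right) or lower (left) in shG0s2 against shLacZ, edgeR with TMM, 4 livers per group, with dashed lines at the shares over all 15592 genes (31.3% and 29.2%). Growth factors, receptor kinases and early response factors lie beyond the right line. Liver-enriched factors, plasma carriers and metabolic hormone receptors lie beyond the left line. With library size alone fewer genes of each of these lists were lower than higher, but 64.6% of all genes were then higher and 7.99% lower. Each of these lists then had a smaller share higher and a larger share lower than all genes. This is no second line of evidence, since scaling shifts all genes nearly alike.

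Ghr, Igf1 and Igfals, picked from the lists as genes of the growth hormone to IGF chain, fell. Ghr, the growth hormone receptor, stood at 505, 514, 484 and 531 CPM in shLacZ and at 250, 241, 253 and 243 in shG0s2 (log2 change -1.04, SE 0.061, edgeR adjusted p = 7.8e-08). Igf1, the hormone that growth hormone induces in liver, fell from 486 ± 61.9 to 259 ± 27.2 CPM (-0.91). Igfals, which holds IGF in its circulating complex, fell from 82.3 ± 20.3 to 25.5 ± 5.31 CPM (-1.68). These 3 genes were lower under both scalings. Stat5b, the signal transducer downstream of the receptor, had a log2 change of -0.32 with TMM and 0.17 with library size alone, so its direction depends on the scaling.

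Igf2, the fetal growth factor, moved the opposite way from Igf1. It stood at 0.137, 0.559, 0.304 and 0.559 CPM in shLacZ and at 22.9, 6.46, 3.21 and 10.04 in shG0s2. The shG0s2 livers spread widely among themselves and were each above all controls (log2 change 4.77, SE 0.844, edgeR adjusted p = 0.0021; 4.06 without shG0s2 replicate 1). The fetal plasma protein Afp rose from 1.52 ± 0.247 to 6.65 ± 2.08 CPM (2.12), and Igf2r, which clears IGF2, from 67.2 ± 6.41 to 104 ± 6.21 CPM (0.63).

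Among other liver hormones, Fgf21, a fasting and stress hormone, rose from 0.689 ± 0.247 to 3.23 ± 1.502 CPM (log2 change 2.22). Gdf15, which signals stress to the brainstem, rose from 10.1 ± 1.37 to 26.9 ± 5.23 CPM (1.41). The chemotactic hepatokine Lect2 rose from 31.0 ± 3.03 to 51.0 ± 2.89 CPM (0.72), and the iron-chelator carrier Lcn2 from 40.3 ± 16.1 to 196 ± 48.9 CPM (2.29). The HDL-bound lactonase Pon1 fell from 356 ± 25.8 to 141 ± 24.0 CPM (-1.33), and Lcat, which esterifies cholesterol on HDL, from 335 ± 30.4 to 147 ± 13.9 (-1.19). Angptl6 fell too (-1.40). The retinol carrier Rbp4 (-0.99) and the lipid-mobilising factor Azgp1 (-1.003) fell as well. All of these directions held under both scalings.

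Growth factors had the largest median change of the secreted lists. Apela, a short hormone that binds the apelin receptor and acts in embryos, had 6 counts in the 4 shLacZ libraries together and 613 in the 4 shG0s2 libraries. Its level was 0, 0.186, 0.0434 and 0.0466 CPM in shLacZ and 5.81, 8.05, 3.41 and 5.49 in shG0s2 (log2 change 6.27, SE 0.484, edgeR adjusted p = 9.6e-07). Without shLacZ replicate 2, which held most of the control counts, the change was 7.34. Hgf, the ligand of Met, rose from 12.0 ± 1.43 to 29.3 ± 5.09 CPM (1.28). Fgf1, a paracrine factor tied to feeding, ran the other way, from 196, 190, 181 and 158 CPM to 62.6, 45.2, 51.0 and 48.7 (-1.80). The angiogenic factor Vegfa fell from 170 ± 6.78 to 91.7 ± 7.09 CPM (-0.89). The matricellular protein Ccn2 (1.95), the stem cell factor Kitl (1.65) and the heparin-binding factor Mdk (3.27) rose as well.

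The ErbB system was singled out after its values were seen, because a receptor and its ligands changed in opposite directions. Egfr, the receptor of EGF and its relatives, stood at 742, 738, 647 and 840 CPM in shLacZ and at 146, 123, 173 and 198 in shG0s2. The groups were far apart, with a log2 change of -2.21 (SE 0.144, edgeR adjusted p = 4.9e-07). Erbb3, which binds neuregulins, fell from 252 ± 22.6 to 148 ± 26.6 CPM (-0.77). Erbb2, the partner without a ligand of its own, rose from 1.64 ± 0.520 to 2.99 ± 0.387 CPM (0.86).

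Nrg1, Btc, Areg and Ereg, ligands of low level in controls, rose. Nrg1, a neuregulin, stood at 0.183, 0.326, 0.391 and 0.326 CPM in shLacZ and at 7.27, 9.91, 5.45 and 8.89 in shG0s2 (log2 change 4.65, SE 0.271, edgeR adjusted p = 7.5e-08). Btc, betacellulin, stood at 1.01, 1.49, 1.48 and 1.77 CPM and at 6.64, 7.92, 5.97 and 7.12 (2.26). Both pairs of groups were separate. Areg and Ereg rose by 3.93 and 2.39 but reached at most 1.21 and 2.24 CPM, with 5 and 24 counts over the 4 control libraries (Ereg 2.98 without shLacZ replicate 4). Tgfa, at 6.53 TPM the highest of these ligands in controls, rose little (29.2 ± 3.17 to 36.2 ± 3.88 CPM, log2 0.31, adjusted p = 0.013). Hbegf (0.43, adjusted p = 0.16) and Egf (-0.40, adjusted p = 0.30) did not pass the threshold. With library size alone Hbegf passed (0.92) and the sign of Egf turned (0.08).

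**Figure D3:**
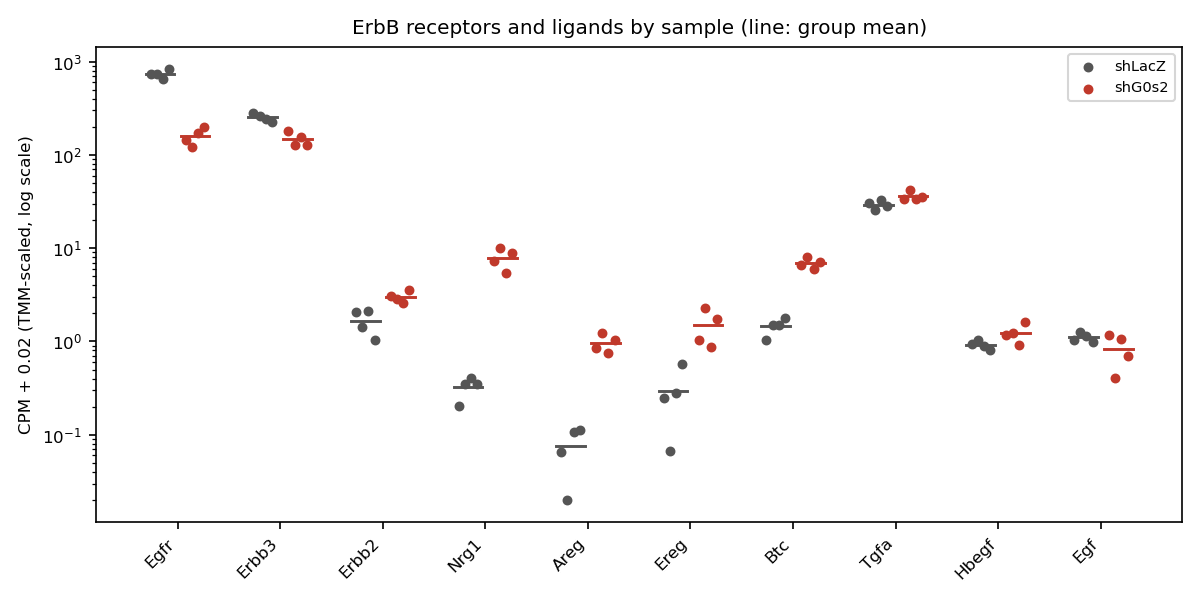
CPM plus 0.02 (TMM-scaled, log axis) of ErbB receptors and ligands in each of the 4 shLacZ and 4 shG0s2 livers, with a line at the mean of each group. Egfr and Erbb3 are lower and Erbb2, Nrg1, Areg, Ereg, Btc and Tgfa higher in each shG0s2 liver than in any control, while Hbegf and Egf overlap.

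Receptors also divided by role. Of 12 receptors for growth hormone, insulin and metabolic hormones, 3 rose and 7 fell (median log2 change -0.50). With library size alone 4 were higher, 2 lower and the median was 0.00. Ghr led the decreases. The glucagon receptor Gcgr (-0.53), the insulin receptor Insr (-0.51) and Fgfr4 (-0.59), the receptor of the bile acid hormone FGF15, were lower only with TMM (-0.04, -0.02 and -0.10 with library size alone). Lepr, the leptin receptor, rose from 7.82 ± 1.65 to 16.6 ± 4.43 CPM (1.09).

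Of 32 receptor kinases and semaphorin receptors, 17 rose and 6 fell with TMM, 26 and 2 with library size alone. Ddr1, a receptor for collagen, stood at 4.95, 2.47, 3.17 and 3.17 CPM in shLacZ and at 25.0, 23.6, 20.8 and 26.9 in shG0s2 (log2 change 2.81, SE 0.171, edgeR adjusted p = 2.3e-07). Ntrk2, the receptor of the neurotrophin BDNF, went from 1.77 ± 0.574 to 13.996 ± 2.52 CPM (2.98). Axl, which binds GAS6 on dying cells, stood at 68.7, 64.1, 67.2 and 56.3 CPM and at 135, 129, 137 and 129, with little spread in either group (1.05). Pdgfrb, a stellate cell marker of the list above, rose from 6.15 ± 0.574 to 28.5 ± 4.88 CPM (2.21). Met, the receptor of Hgf, had a log2 change of -0.68 with TMM and -0.20 with an adjusted p of 0.068 with library size alone.

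Ligand-binding and accessory chains for interleukin-1, interleukin-6 and leukaemia inhibitory factor fell. Il1rap, the accessory chain of the interleukin-1 receptor, stood at 148, 164, 151 and 158 CPM in shLacZ and at 38.6, 31.6, 47.1 and 37.2 in shG0s2 (log2 change -2.001, SE 0.103, edgeR adjusted p = 5.7e-08). Il1r1, its ligand-binding chain, fell from 95.1 ± 20.9 to 37.9 ± 6.21 CPM (-1.33). Il6ra, the ligand-binding chain for interleukin-6, fell from 139 ± 22.1 to 43.8 ± 7.46 CPM (-1.66), and Lifr, the receptor of leukaemia inhibitory factor, from 281 ± 36.7 to 90.2 ± 7.52 (-1.64). The shared signalling chain Il6st was 213 ± 3.90 and 230 ± 13.3 CPM with overlapping groups (0.11, adjusted p = 0.14; 0.60 with library size alone, where it passed). Osmr, which pairs with Il6st for oncostatin M, rose from 4.87 ± 0.144 to 10.01 ± 2.14 CPM (1.03).

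Over the whole list of 29 cytokine and TNF family receptors, 15 rose and 5 fell with TMM, 24 and 4 with library size alone. Tnfrsf10b, the mouse TRAIL death receptor, stood at 1.56, 1.58, 1.95 and 2.28 CPM in shLacZ and at 9.06, 13.4, 9.90 and 12.4 in shG0s2 (log2 change 2.59, SE 0.174). Tnfrsf12a, the receptor of TWEAK, rose from 5.78 ± 1.87 to 33.5 ± 7.15 CPM (2.54), and Eda2r, a receptor of an ectodysplasin form, from 10.5 ± 3.66 to 31.6 ± 1.48 (1.59). Tnfrsf21 (1.10) and the interleukin-10 receptor chain Il10rb (1.001) rose too. The groups were separate for each of these genes.

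Of 25 TGF-beta family, Notch and Wnt receptors, 8 rose and 7 fell, shares near those of all genes; with library size alone 16 were higher and 2 lower. Notch3, a Notch receptor of mural cells, stood at 8.94, 9.96, 11.8 and 25.6 CPM in shLacZ and at 51.2, 80.4, 93.5 and 77.9 in shG0s2 (log2 change 2.43, SE 0.385, edgeR adjusted p = 0.0014). One control was high for its group, yet the groups stayed apart. Tgfbr2, the ligand-binding TGF-beta receptor, rose from 55.2 ± 2.64 to 103 ± 8.00 CPM (0.90). Lgr4, the R-spondin receptor that supports Wnt signalling in hepatocytes, fell from 77.1 ± 2.63 to 35.0 ± 4.01 CPM (-1.14).

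Endocytic and scavenger receptors were nearly balanced, with 12 higher and 10 lower of 28 (17 and 5 with library size alone). Pigr, which carries immunoglobulin A into bile, stood at 958, 1002, 887 and 982 CPM in shLacZ and at 145, 81.1, 288 and 135 in shG0s2 (log2 change -2.56, SE 0.375, edgeR adjusted p = 0.00081). The third shG0s2 liver again kept the most. Lrp2, megalin, fell from 3.02 ± 0.464 to 0.171 ± 0.181 CPM (-4.03, and -4.87 without shG0s2 replicate 3), and Tfr2, a sensor of transferrin, from 453 ± 68.7 to 211 ± 23.2 (-1.10). Cd36, a fatty acid and lipoprotein receptor, stood at 126, 162, 164 and 144 CPM and at 419, 422, 385 and 397 (1.44). The lipoprotein receptor Vldlr (1.44) and the sorting receptor Sorl1 (1.24) rose with it.

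Of 49 G protein-coupled receptors, 30 rose and 6 fell (median log2 change 0.70), and 41 and 3 did so with library size alone. Gprc5b, an orphan receptor, stood at 1.28, 0.605, 1.08 and 1.26 CPM in shLacZ and at 28.7, 31.5, 23.4 and 28.6 in shG0s2 (log2 change 4.72, SE 0.169, edgeR adjusted p = 2.9e-09). Its 4 shG0s2 values were close together and far above any control. The complement receptor C3ar1 (7.68 ± 1.46 to 19.1 ± 1.74 CPM, 1.32) and the UDP-sugar receptor P2ry14 (1.81 ± 0.377 to 5.94 ± 0.441, 1.70) rose. Macrophage markers rose in the same livers. Sucnr1, the succinate receptor of stellate and other cells, fell from 14.2 ± 1.59 to 4.57 ± 1.13 CPM (-1.63), in livers in which all 10 stellate markers rose.

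Liver-enriched transcription factors were mostly lower with TMM. Of 34, 2 rose and 18 fell (median log2 change -0.37), whereas with library size alone 9 were higher and 6 lower (median 0.12, against 0.50 for all genes). Hnf4a, a nuclear receptor that drives much of the hepatocyte programme, stood at 1075, 1020, 931 and 980 CPM in shLacZ and at 545, 538, 493 and 484 in shG0s2 (log2 change -0.96, SE 0.0781, edgeR adjusted p = 8.4e-07; -0.47 with library size alone, adjusted p = 0.00010). It stayed lower under both scalings. So did Mlxipl, the glucose-responsive factor ChREBP (423 ± 55.8 to 192 ± 13.7 CPM, -1.14), Cebpa (276 ± 41.6 to 156 ± 13.6, -0.82), the xenobiotic receptor Nr1i3 (197 ± 29.4 to 106 ± 23.3, -0.90) and Ppara (455 ± 15.0 to 294 ± 24.5, -0.63). The bile acid receptor Nr1h4 (-0.48) turned to 0.01 with library size alone, and Foxa3 (-0.67) lost its call (-0.18, adjusted p = 0.057).

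Factors of the early response and of the AP-1, ETS and Krüppel-like families rose in 21 of 35 and fell in 4 (29 and 3 with library size alone). Jun, the AP-1 subunit, stood at 21.3, 21.0, 18.1 and 18.8 CPM in shLacZ and at 71.2, 91.5, 64.4 and 72.3 in shG0s2 (log2 change 1.92, SE 0.106, edgeR adjusted p = 7.8e-08). Klf6, a factor of liver injury, moved almost alike, from 17.5, 16.99, 17.6 and 18.5 CPM to 60.8, 82.7, 58.2 and 67.6 (1.93). The stress factor Atf3 rose from 2.71 ± 0.993 to 10.7 ± 1.20 CPM (1.97) and the ETS factor Elf4 from 9.57 ± 0.897 to 20.1 ± 1.22 (1.07). Fos rose less, from 2.38 ± 0.769 to 3.91 ± 0.762 CPM (0.72, adjusted p = 0.020), and lost its call without shG0s2 replicate 1 (adjusted p = 0.066). Klf15, a glucocorticoid-responsive factor of fasting metabolism, fell from 332 ± 60.7 to 175 ± 31.0 CPM (-0.93).

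**Figure D4:**
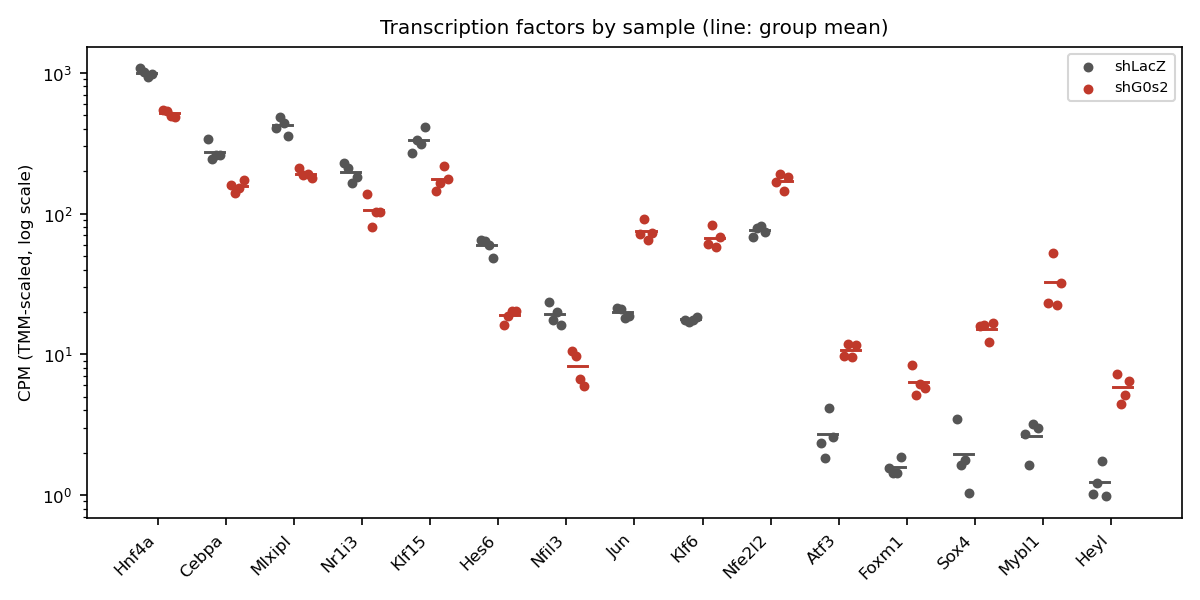
CPM (TMM-scaled, log axis) of 15 transcription factors in each of the 4 shLacZ and 4 shG0s2 livers, with a line at the mean of each group. Hnf4a, Cebpa, Mlxipl, Nr1i3, Klf15, Hes6 and Nfil3 are lower and Jun to Heyl higher in each shG0s2 liver than in any control; these directions were the same with library size alone.

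Growth and cell cycle factors rose in 14 of 27 and fell in 4 (21 and 1 with library size alone). Mybl1, a MYB family factor best known from the germline, stood at 2.70, 1.63, 3.21 and 2.98 CPM in shLacZ and at 23.0, 52.2, 22.2 and 32.3 in shG0s2 (log2 change 3.61, SE 0.371, edgeR adjusted p = 9.3e-05). Foxm1, which drives entry into mitosis, rose from 1.57 ± 0.201 to 6.33 ± 1.41 CPM (2.01), E2f1 from 5.09 ± 0.382 to 12.2 ± 0.411 (1.27), and the Hippo pathway partners Tead2 and Wwtr1 by 1.98 and 0.85. Myc was 11.6 ± 6.09 and 15.5 ± 6.08 CPM with overlapping groups (0.42, adjusted p = 0.42).

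Developmental and biliary progenitor factors rose in 19 of 39 tested and fell in 5 (32 and 3 with library size alone); 16 of the 55 listed had too few counts. Sox4, a factor of progenitor cells, stood at 3.44, 1.63, 1.78 and 1.02 CPM in shLacZ and at 15.96, 16.02, 12.2 and 16.6 in shG0s2 (log2 change 2.94, SE 0.276, edgeR adjusted p = 1.3e-05). Heyl, a Notch target (2.23), Tcf21, a factor of stellate cells (2.17), and Runx1 (1.24) rose, beside the rise of stellate markers and of Notch3. Hes6, an antagonist of the HES1 protein, fell from 65.4, 63.5, 60.0 and 48.6 CPM to 16.1, 18.7, 20.4 and 20.3 (-1.65). Sox6 (-0.94) and Nfix (-0.66) fell too.

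Immune factors rose in 15 of 27 and fell in 3 (24 and 1 with library size alone), among them Irf8 of the myeloid lineage (21.8 ± 2.37 to 47.0 ± 3.21 CPM, 1.11), while Irf2 fell (61.1 ± 1.14 to 38.2 ± 1.59, -0.67). Macrophage and T cell markers rose in the same livers. Of 47 metabolic, stress and hypoxia factors, 8 rose and 21 fell with TMM, but 21 were higher and 2 lower with library size alone. Nfil3, a repressor in the circadian output, fell from 19.3 ± 3.15 to 8.20 ± 2.26 CPM (-1.24). Nfe2l2, the oxidative stress factor NRF2, stood at 68.2, 79.2, 81.4 and 74.5 CPM and at 166, 190, 144 and 183 (1.17, SE 0.0891, edgeR adjusted p = 5.3e-07). Nr4a2, an orphan nuclear receptor, rose from 0.681 ± 0.114 to 2.73 ± 0.341 CPM (1.99). Of 10 sex-biased factors 1 rose and 3 fell (3 and 0 with library size alone), with the oestrogen receptor Esr1 at 25.2 ± 4.36 and 13.9 ± 4.50 CPM (-0.85; -0.37 with an adjusted p of 0.097 with library size alone).

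Wider classes drawn from Gene Ontology terms and gene descriptions were counted in the same way. Of 1198 tested genes of extracellular proteins 524 rose and 338 fell (median log2 change 0.24), of 817 receptor genes 350 rose and 189 fell (0.21), and of 623 transcription factor genes 185 rose and 130 fell (0.06). The shares that rose were 43.7%, 42.8% and 29.7%, beside 31.3% of all genes, and the shares that fell were 28.2%, 23.1% and 20.9%, beside 29.2%. On the shorter lists the shares that rose were 39.3%, 48.6% and 36.5%, and those that fell were 34.8%, 23.4% and 26.5%. With library size alone the counts of the wide classes were 783 and 170, 559 and 62, and 437 and 26. Bmp8b, a ligand of the BMP family, stood at 0.275, 0.233, 0.0868 and 0.186 CPM in shLacZ and at 7.23, 11.0, 5.35 and 9.03 in shG0s2 (5.35, edgeR adjusted p = 1.3e-07). Plat, the tissue plasminogen activator (5.01), and Lipn, a lipase otherwise known from skin (4.85), rose from below 1 CPM in each control to above 9 CPM in each shG0s2 liver. The opposite was seen for Moxd1, a monooxygenase-like protein, at 255, 201, 72.5 and 264 CPM against 1.03, 0.129, 0.0345 and 0. Its 4 shG0s2 libraries held 35 counts together. Ces4a, a carboxylesterase, fell from 16.5 ± 0.871 to 0.231 ± 0.0708 CPM (-6.09).

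In the wider receptor class the increases included Hmmr, a hyaluronan receptor of dividing cells (3.29), Mrc2, a collagen uptake receptor of fibroblasts (3.21), and Frzb, a secreted Wnt antagonist (2.92). The decreases included Adgrv1, a very large adhesion receptor (45.5 ± 10.03 to 4.57 ± 0.484 CPM, -3.32), Clec2h (-2.34), the interleukin-2 receptor chain Il2ra (-2.29) and the adhesion molecule Cadm4. Cadm4 stood at 21.2, 23.1, 15.3 and 16.7 CPM in shLacZ and at 3.88, 4.05, 4.07 and 4.01 in shG0s2 (-2.25, SE 0.137), with hardly any spread in the second group. Among the wider transcription factor class, Bmyc fell (-1.16). A230005M16Rik (-3.60) and Zbtb11os1 (-0.98) are antisense genes that carry such terms, and without strand information their reads cannot be told apart from those of their partners.

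The direct test against shRgs16 livers leaves the shared controls out of the difference itself. All 12 samples were in that fit, so the controls still entered the filter, the scaling and the estimate of spread. Over all genes 41.5% differed between shG0s2 and shRgs16 (21% higher and 20.5% lower in shG0s2, of 16018 tested). Of the 127 genes picked for naming by their change, role or level, which were chosen on the same shG0s2 livers, 102 differed, 47 higher and 55 lower. G0s2 was at 37.2 ± 10.1 CPM in shG0s2 and 75.0 ± 14.1 in shRgs16 (log2 change -1.01, edgeR adjusted p = 0.0024), and Rgs16 at 59.1 ± 11.4 and 26.2 ± 10.9 (1.18, adjusted p = 0.017). Each hairpin group thus had the lower level of its own target.

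Several induced genes were much higher in shG0s2 than in shRgs16. Lipn was at 16.7 ± 3.61 and 0.795 ± 0.167 CPM (log2 change 4.37, SE 0.240), Apela differed by 3.91, Cbr3 by 3.60, Nrg1 by 3.29, Gprc5b by 3.24 and Notch3 by 2.43. Cd36 was at 409 ± 19.0 and 141 ± 23.2 CPM (1.53) and Fgf21 at 3.26 ± 1.52 and 0.456 ± 0.197 (2.80). Among the decreases, Cyp7b1 was at 24.2 ± 6.24 and 218 ± 71.9 CPM (-3.17), Cadm4 at 4.03 ± 0.0823 and 19.5 ± 2.07 (-2.27), and Fgf1 at 52.3 ± 7.61 and 143 ± 22.3 (-1.45). All of these differences passed the edgeR threshold.

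Other genes did not separate the hairpins, or separated them the other way. Ghr (-0.07, SE 0.0800, adjusted p = 0.51), Igf2 (0.18, SE 0.624), Hes6 (-0.11), Axl (0.09) and C3ar1 (0.01) did not pass, which does not show equal levels. Afp was lower in shG0s2 than in shRgs16, at 6.70 ± 2.10 and 32.0 ± 19.3 CPM (-2.25, adjusted p = 0.0011), and Lepr was lower too (-1.29). Mup20 was higher in shG0s2, at 7270 ± 928 and 3636 ± 565 CPM (0.999, adjusted p = 1.3e-05), whereas Mup7 was lower, at 54.5 ± 40.9 and 1990 ± 1340 (-5.19, adjusted p = 0.00066).

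**Figure D5:**
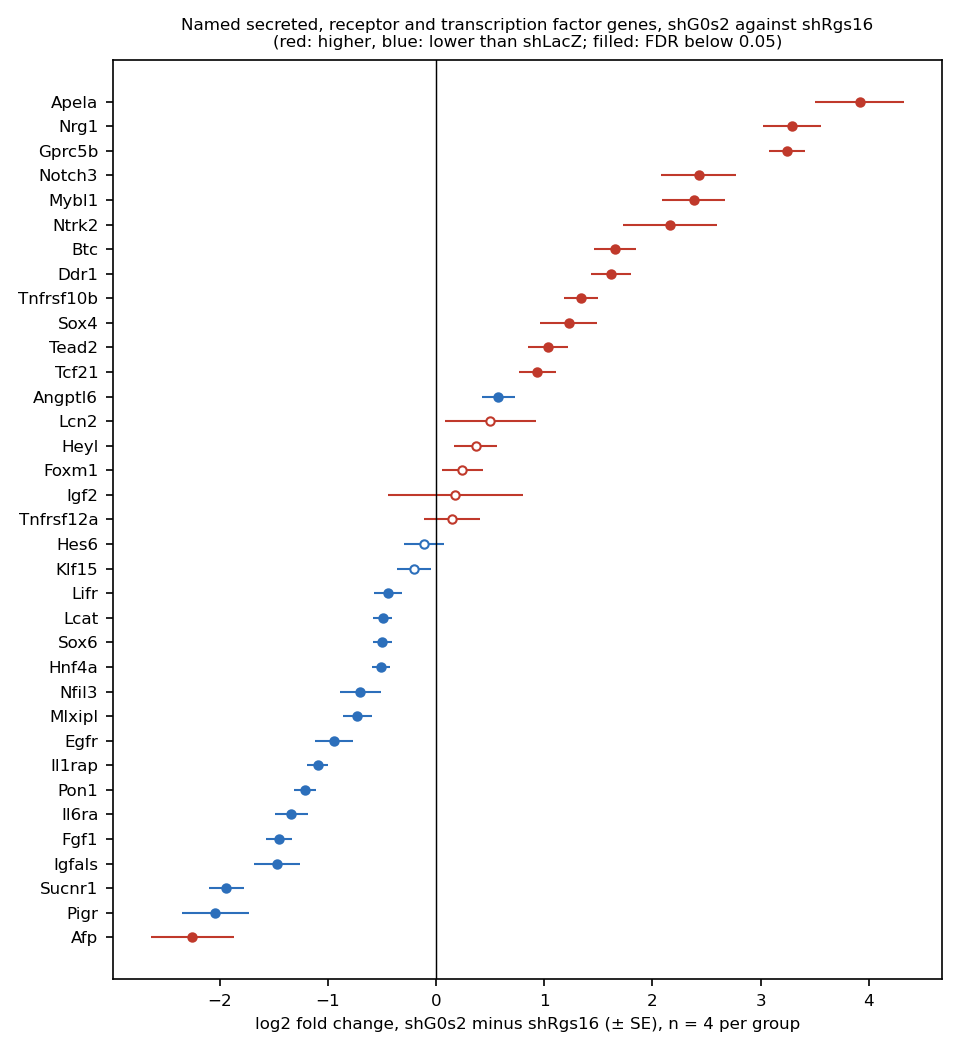
log2 fold change of shG0s2 minus shRgs16 with its standard error, 4 livers per group, for named genes of the secreted, receptor and transcription factor lists. Most genes higher than control (red) lie right of 0 and most lower than control (blue) left of it; among the genes plotted, Afp and Angptl6 lie on the other side, and open symbols did not pass the threshold.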

How the data were processed

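The authors deposited, per gene, estimated counts and TPM for each of the 12 libraries, together with a fold change (ratio), its log2 and a p-value with its adjusted value per hairpin. Per the submitters' processing notes the tools were Bowtie2 2.2.9, SAMtools 1.9, GATK 3.8, fastp 0.19.5 and DESeq2, with no role stated. Which counter, build, annotation and strand setting were used is not given in the sources used here. GENCODE M21 held each of the 55536 gene IDs. The authors' deposited table marks 2426 genes as up and 950 as down. The smallest absolute log2 change among these was 1.00, so their marks also rest on the size of the change. Among the edgeR calls reported here, 2175 genes were higher and 815 lower by a fold of 2 or more.

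Estimated counts were rounded and tested with edgeR 4.0.16 (R 4.3.3): filterByExpr, TMM scaling, robust quasi-likelihood F test, two-sided, Benjamini-Hochberg over all tested genes, threshold 0.05. The rule for "rose" and "fell" is this test. SE is the absolute log2 fold change over the square root of F. On simulated counts for the 15592 genes of this comparison, 78% of genes with a log2 change of 1 and 91% with 2 were recovered, and 8.15% of calls were false. The simulation changed only a small share of genes, as many up as down, and otherwise drew both groups from the same levels. These rates therefore do not carry over to the real comparison, in which 60.5% of genes were called. Alternatives used DESeq2 1.42.0, limma 3.58.1 (voom), other scalings and filters, a replicate block, all 12 samples, and each library left out. Libraries of 1 group differed by 11.2 to 33.0 chi-square per degree of freedom, so none was a copy of another. No label says that each library came from its own animal, so p-values may reflect technical spread only.

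Named genes were G0s2, Rgs16 and, per class, the 6 largest increases and decreases with at least 5 CPM in the higher group and no overlap of groups. To these were added the 10 highest TPM per group, 8 each way at 50 TPM or more, and the 2 smallest p per role list. Genes outside the rule were picked after their values were seen (the ErbB genes, interleukin receptor chains and single list members). The members and lists were chosen with earlier results of these data known. Promoter sequences are RefSeq's on GRCm38.p6; 519 of 814 gene symbols that fell by a fold of 2 or more and 1585 of 2175 that rose had a window, and windows of 1 chromosome were left out. A few genes are not reported here.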

Additional observations from a re-analysis of the deposited data

Results flagged for a closer look

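For 162 named genes, the 4 livers of each group were searched for 1 that stood apart, by Dixon's test of the gap to its nearest neighbour at the 95% level. Of 324 groups 20 had such a liver, a share near the 5% or so that chance alone gives. Any of these flags may therefore be chance, and those of close copies such as Mup22 and Mup14 are not independent. The flags in shG0s2 replicate 3 included transcripts that fell in the group and stood higher in this liver: Mup22 2257 CPM (nearest other 557), Serpina1e 1053 CPM (249), Mup14 831 CPM (130), Saa1 74.9 CPM (37.6), Lgr4 41.0 CPM (33.2) and Sult2a8 40.4 CPM (15.1). The same liver had Sox4 at 12.2 CPM, below the 15.96 of its nearest neighbour, and G0s2 at 24.5 CPM, the lowest of its group. Without this liver the log2 change was -5.06 for Mup22 (-4.10 with it), -6.68 for Mup14 (-5.39), -4.95 for Serpina1e (-3.89), -5.31 for Sult2a8 (-4.76), -3.56 for Saa1 (-3.20), -1.22 for Lgr4 (-1.14) and 3.04 for Sox4 (2.94), each past the threshold.

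In shG0s2 replicate 1, Gm3776 was high at 192 CPM (nearest other 122) and Moxd1 at 1.03 CPM (0.129; log2 change -11.80 without this liver and -9.27 with it), while Nr4a2 was low at 2.22 CPM (2.85) and Foxa3 at 36.4 CPM (41.2). In shG0s2 replicate 2, the library of lowest depth, Ubd was high at 83.5 CPM (63.5), and Apoe was low at 9324 CPM (11604) and Igf2r at 94.7 CPM (106).

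Among controls, shLacZ replicate 1 was high for Lcn2 at 64.1 CPM (34.2) and for Tnfrsf21 at 12.0 CPM (9.20). Replicate 3 was high for Gsta1 at 7.03 CPM (3.45) and for Sucnr1 at 16.5 CPM (13.6) and low for Mup14 at 10233 CPM (13232). Replicate 4 was low for Adgrv1 at 30.5 CPM (49.4). In each of these genes the liver that stood apart still lay outside the range of the other group.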

How the results depend on the processing

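Scaling by library size alone changed the balance of calls: genes higher in shG0s2 numbered 10067 in place of 4875 and genes lower in shG0s2 1246 in place of 4556. Over the lists, higher and lower genes then numbered 54 and 14 of the secreted, 128 and 18 of the receptors, 139 and 16 of the transcription factors and 24 and 44 of the abundant genes. With TMM 6 of the 100 abundant genes were higher and 76 lower, and of the 50 of highest mean TPM 2 were higher and 43 lower. G0s2 was at -0.48 (adjusted p = 0.055) with library size alone; the range over the livers left out in turn was -1.14 to -0.82, each past the threshold. Under the other alternatives, the genes higher ranged from 4512 to 5163 and the genes lower from 4312 to 4807; with each liver left out they ranged from 4566 to 4898 and from 4144 to 4403. Replicate numbers did not pair the samples: deviations of same-numbered samples correlated at 0.127, -0.031, -0.018 and 0.003. With the replicate block 4836 genes were higher and 4463 lower; among named genes it ended the calls of Apoe (adjusted p = 0.080), Clu (0.089) and Ftl1 (0.058) and added Myc (log2 change 0.46, adjusted p = 0.021). Of the 162 named genes, library size alone turned 4: Apoe (0.14), Egf (0.077), Nr1h4 (0.0127) and Stat5b (0.17). It also ended 9 calls and added 4. Trf, which had no call, turned to -0.03 without shLacZ replicate 3. Of the 127 genes tested against shRgs16, 100 to 104 differed under the alternatives (102 as reported). The cause of these changes was not tested. Genes below about 1 CPM, such as Areg and Ereg in controls, rest on few counts.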

Other observations

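Of 8 tested erythroid markers, 7 rose and 1 fell under both scalings, and their summed level was 553 to 707 CPM in shLacZ and 557 to 729 in shG0s2. Hba-a1, a globin gene, was 77.9 ± 10.7 CPM in shLacZ and 110 ± 14.6 in shG0s2 with overlapping groups (log2 change 0.50, edgeR adjusted p = 0.0031, and 0.092 with all 12 samples in the fit). The red cell membrane genes Slc4a1 (0.682 ± 0.167 to 6.48 ± 2.38 CPM, log2 change 3.23) and Ermap (0.0906 ± 0.0346 to 0.992 ± 0.214, log2 change 3.37) rose by far more. Alas2, the erythroid enzyme that opens haem synthesis, went the other way, from 125, 138, 153 and 147 CPM to 22.8, 17.6, 28.9 and 23.5 (log2 change -2.60, SE 0.135, edgeR adjusted p = 2.5e-07). It was also lower in shG0s2 than in shRgs16 (-0.99, adjusted p = 3.8e-05). These genes were picked after their values were seen.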
